A study of Mus musculus with 4 samples.

Results

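Heat shock proteins and chaperones are the proteins that fold, refold and disassemble other proteins. Their genes were read here from RNA of mouse brain cells that carry a label for excitatory or for inhibitory neurons. Members were all rows of the deposited tables whose gene symbol belongs to the HSP70 and HSP110 (Hspa, Hsph1), HSP90, small HSP (Hspb), DnaJ (Dnaja, Dnajb, Dnajc), mitochondrial chaperonin (Hspd1, Hspe1) or TRiC chaperonin (Tcp1, Cct2 to Cct8) families. The rule used names and no measured value, and it found 82 genes of 24421.

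HSP70 proteins clamp onto unfolded stretches of a client under ATP. DnaJ proteins, also called J proteins or HSP40, bring the client and trigger ATP hydrolysis, and HSP110 proteins and other exchange factors reset the cycle. HSP90 proteins finish the folding of kinases and receptors, small HSPs hold unfolded proteins without ATP, and the chaperonins enclose a client in a chamber. In neurons, Hspa8 strips clathrin from endocytosed vesicles together with the J protein of Dnajc6, and at synaptic vesicles it works with the J protein of Dnajc5.

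The excitatory libraries came from αCaMKII-positive and the inhibitory libraries from vGAT-positive brain neurons, with 2 libraries of each and 100 fluorescent cells picked by hand per library. The mice were males of 3 to 5 months from αCaMKII-Cre and vGAT-IRES-Cre colonies, both kept by crossing to wild-type C57Bl/6J. The labels name both lines for every library, and a separate driver line per label would make Cre line and cell label impossible to tell apart. The series concerns ERK signalling in a Noonan syndrome model, but the labels give no mutation or treatment for these libraries, nor the reporter that made the cells fluoresce, nor whether each library had its own animals. If not, the p-values below cover spread between pools of picked cells and their handling, and do not cover spread between animals.

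A deposited value is log2(normalized reads + 1). Values of a gene are given for excitatory 1 and 2, in that order, against those of inhibitory 1 and 2. A difference is excitatory minus inhibitory on that scale, which understates the change of genes with low values. Depth, estimated from the spacing of low values, was about 61800000 to 74200000 reads, and 12609 to 12798 genes were above 0 in a library. Mbp, the highest gene, was listed at 21.331 in all 4 libraries, and on this scale the median difference of all 13619 tested genes was 0.52. Each difference is therefore also given after median-of-ratios scaling, called scaled, where that median was -0.01. Defining markers went only in part with the labels. Slc32a1, which encodes vGAT, was at 0 everywhere, Slc17a6, a vesicular glutamate transporter, was at 0 in both inhibitory libraries only, and Camk2a went with its label in both scalings (0.87, limma adjusted p = 0.000318, and 0.33 scaled, 0.00677). Gad1 went with the inhibitory label after scaling (-1.02, adjusted p = 0.00768) but did not pass in the deposited values (-0.48, 0.0649), and Gad2 passed in neither (0.824, scaled 0.137). Microglial markers were present throughout, with a summed linear level of 67700 and 71000 in excitatory 1 and 2 and 179000 and 152000 in inhibitory 1 and 2. Of the 13 microglial markers tested, 8 were higher on the inhibitory side (61.5%, against 26.8% of all tested genes) and 0 on the excitatory side. Ptprc was listed at 0 in both excitatory libraries. Oligodendrocyte precursor markers were also higher on the inhibitory side (205 and 210 against 4770 and 6810, 3 of 4 tested). Of these 4, Pdgfra had 0 and 0 against 10.84 and 11.51, and Gpr17 went the other way (7.66 and 7.66 against 0 and 0). Blood markers were higher on the inhibitory side too (17.1 and 29 against 6600 and 3840, 4 of 5). Among the 5, Hba-a1 and Hba-a2 had the same values, and Alas2 went the other way (4.17 and 4.46 against 0 and 0). Of 13 oligodendrocyte markers, 7 were higher on the excitatory and 1 on the inhibitory side in the deposited values (all tested genes 45.0% and 26.8%). Scaled, the counts were 7 and 3 (all tested genes 32.4% and 33.5%). The summed levels were 3030000 and 2970000 against 2740000 and 2740000. Scaled, these sums were 2450000 and 2510000 against 3400000 and 3210000. Astrocyte markers had the largest sums of the marker lists, with 4740000 and 4750000 against 3190000 and 2880000. After scaling the astrocyte sums were 3830000 and 4020000 against 3960000 and 3370000. Of 12 astrocyte markers, 9 were higher on the excitatory and 0 on the inhibitory side in the deposited values. The shares of all tested genes were 45.0% and 26.8%. Scaled, the counts were 3 and 2 of 12, against 32.4% and 33.5% of all tested genes. The pan-neuronal list summed to 216000 and 211000 against 142000 and 140000. Scaled, its sums were close to level, with 174000 and 178000 against 176000 and 164000. Excitatory and inhibitory below are labels of libraries. Fewer cells of a type and less RNA per cell cannot be told apart in such pools, and the part of other cells in the results was not tested.

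The promoters of a few members are shown because these genes are textbook targets of the heat shock factors or of the unfolded protein response of the endoplasmic reticulum. In the RefSeq windows of 300 bases around start sites (build GRCm38.p6), the heat shock element was searched on both strands as GAA, TTC and GAA with 2 bases between neighbouring triplets. It was found in 198 of 32851 promoters (0.603%). A gene was counted if any of its windows held a match, which gave 179 of 27025 genes (0.662%). Among the 67 members with a window these were Hspd1, Hspe1, Dnajb6 and Hsph1. The endoplasmic reticulum stress element was searched on both strands as CCAAT and CCACG with 9 bases between them. It was in 39 promoters (0.119%) of 37 genes (0.137%), with Hspa5, Hsp90b1 and Dnajc3 the members among them. The short form of the heat shock element, GAA and TTC with 2 bases between them, is contained in the longer one. It was in 2582 promoters (7.86%) of 2442 genes (9.04%), and in those of 16 of the 67 members. A match describes letters in the window and shows no binding. Capitals mark the matches, and each stretch is on the strand of its gene.
Hspe1, chr1:55088053-55088082, plus strand, 2 overlapping heat shock matches: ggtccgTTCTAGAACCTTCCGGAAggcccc
Hspa5, chr2:34772019-34772048, plus strand, stress element: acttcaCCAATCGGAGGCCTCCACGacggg
Dnajc3, chr14:118937821-118937850, plus strand, stress element: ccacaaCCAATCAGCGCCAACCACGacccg
Hsp90b1, chr10:86705633-86705662, minus strand, stress element: acaagcCCAATCGCAAGGAGCCACGcttcg
Hsp90b1, chr10:86705528-86705557, minus strand, stress element read from the other strand: agagtgCGTGGTGAGGCACGATTGGtgagt

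The chaperone genes did not move as a block between the labels, and single genes in nearly every family were far apart. Hspa8, Hsp90ab1, Hsp90aa1 and Dnaja1, the 4 highest members per kb of exon in both groups, differed by less than 1 log2 unit. Other abundant members, such as Hsp90b1, Dnajb2 and Hspd1, differed by more than that and were higher in the excitatory libraries. Members such as Dnajc10, Hspb3 and Hspa4 were much higher in the excitatory libraries, and Hspa1a, Hspb6, Dnajc12 and Dnajc28 in the inhibitory ones. Of the 82 members, 10 were listed at 0 in all 4 libraries and 72 were tested. In limma's test with Benjamini-Hochberg adjustment over all tested genes, 36 members were higher in the excitatory libraries (50% of those tested, against 45.0% of all genes) and 17 in the inhibitory libraries (23.6%, against 26.8%). After scaling, 24 were higher in the excitatory (33.3%, against 32.4% of all genes) and 27 in the inhibitory libraries (37.5%, against 33.5%). These shares lie near those of all genes. The median difference of the tested members was 0.34, and -0.20 after scaling.

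Below, "higher" without further words is used of genes past the threshold in both scalings, which held for 41 members (56.9% of those tested, background of either direction 59.3%), 24 of them towards the excitatory (background 32.4%) and 17 towards the inhibitory side (background 26.8%). With each library left out in turn, 16 members stayed past the threshold in both scalings every time, 8 in each direction, or 22.2% of those tested, against 25.1% of all genes. They were Dnajb2, Dnajb7, Dnajc2, Dnajc8, Dnajc10, Hspb1, Hspb3 and Hspd1, higher in the excitatory libraries, and Dnaja4, Dnajc12, Dnajc24, Dnajc28, Hspa12b, Hspa1a, Hspa1l and Hspb6, higher in the inhibitory ones. Of these, Dnajb7, Dnajc10, Hspb1, Hspb3, Hspa12b and Hspa1l were at 0 in both libraries of a group. For them, leaving out a library of the other group left no spread within groups, so holding there adds little. Of the tested members, 8 had values under 1 in both libraries of a group and entered the test through the other group alone, and 7 of these are among the 16. The summed level of all members was 0.574% and 0.565% of a library's linear total in excitatory 1 and 2 and 0.559% and 0.557% in inhibitory 1 and 2.

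**Figure D1:**
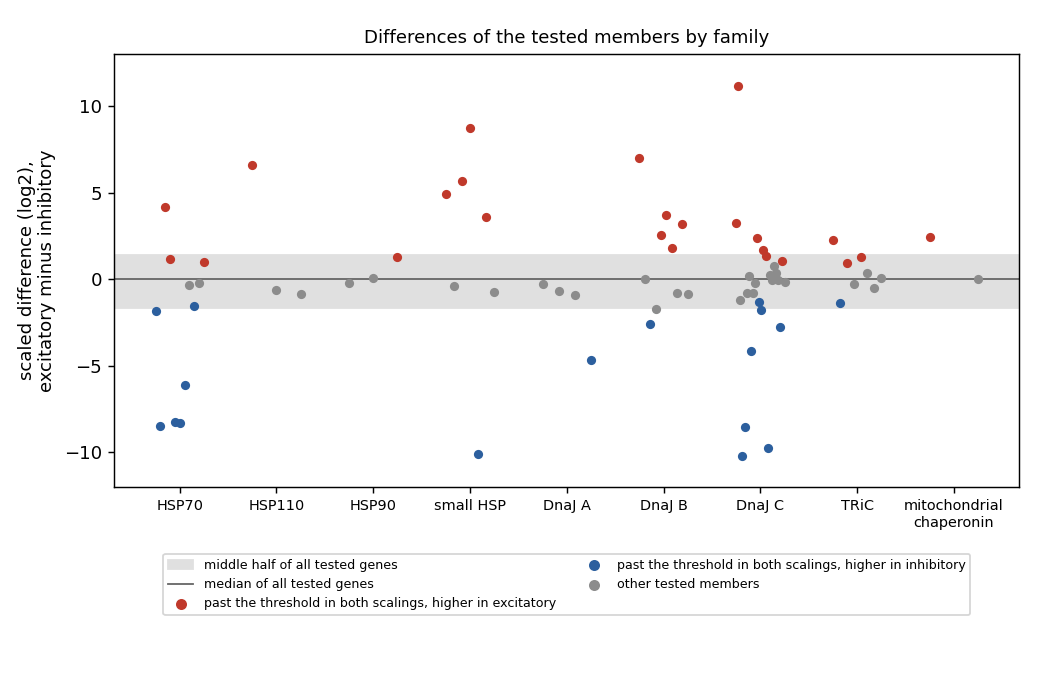
Scaled difference (log2, excitatory minus inhibitory) of the 72 tested members, 1 point per gene, by family. Red and blue points passed the threshold in both scalings, grey points did not, and the band spans the middle 50% of all tested genes, from -1.66 to 1.38. Points lie on both sides of the band in the HSP70, small HSP, DnaJ B and DnaJ C families.

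Of the 11 HSP70 genes, 6 were higher on the inhibitory (background 26.8%) and 3 on the excitatory side (background 32.4%). The stress-inducible Hspa1a and Hspa1b were among the former and the most abundant member, Hspa8, was close to level. Hspa1a (chr17:34969190-34972156), which encodes the classical heat-inducible HSP70, had 1.98 and 1.90 against 9.97 and 9.52. The groups lay far apart, with a difference of -7.81 (SE 0.34, limma adjusted p = 0.000106), or -8.27 scaled (0.000132). Hspa1b (chr17:34956436-34959238), its near-identical neighbour, had 2.71 and 0.35 against 9.46 and 9.35. Its difference was -7.88 (SE 0.84, adjusted p = 0.00116) and did not pass without inhibitory 1 (0.0786) or inhibitory 2 (0.0765). Hspa1l, on the opposite strand with its start 547 bases from that of Hspa1a, had 0 and 0 against 5.72 and 6.03.

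The transcripts of Hspa1a and Hspa1b were 99.3% identical over 2197 aligned bases, so how reads were divided between them is uncertain, and 71.9% of the exon bases of Hspa1l lie opposite the antisense gene Gm10501, whose reads cannot be told apart in libraries without strand. The 250 bases before their start sites are shown because both genes were low in the same libraries. They differ at 3 positions (247 identical), and each holds the short heat shock form, in capitals.
Hspa1a, chr17:34972157-34972406, minus strand: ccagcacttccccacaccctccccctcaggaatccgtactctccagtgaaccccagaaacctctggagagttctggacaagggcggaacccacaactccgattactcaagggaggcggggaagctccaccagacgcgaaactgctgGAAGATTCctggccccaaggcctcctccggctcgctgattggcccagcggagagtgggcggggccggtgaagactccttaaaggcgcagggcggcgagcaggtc
Hspa1b, chr17:34959239-34959488, minus strand: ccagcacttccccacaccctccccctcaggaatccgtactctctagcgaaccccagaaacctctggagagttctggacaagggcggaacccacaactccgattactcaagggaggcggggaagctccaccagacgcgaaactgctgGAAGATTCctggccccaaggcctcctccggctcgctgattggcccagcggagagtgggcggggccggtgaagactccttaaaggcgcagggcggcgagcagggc

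Immediate early genes, which stimulation and cell handling can both induce, went both ways. Of 21 tested, 11 were higher on the inhibitory side (52.4%, background 26.8%) and 5 on the excitatory side (23.8%, background 32.4%). Fos had 5.73 and 4.82 against 13.32 and 12.89, in the direction of Hspa1a. Nr4a1 (9.19 and 8.73 against 0 and 0), Fosl2 (9.04 and 9.93 against 0 and 0) and Arc (13.30 and 13.35 against 12.04 and 11.84) went in the opposite direction. The summed linear level of the list was 23400 and 23600 against 38500 and 31000, with Npas4 at 0 in each library. Their part in the HSP70 values was not tested.

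Hspa8, the constitutive HSP70 of the cytosol, was the highest member per length, with a mean of 27800 normalized reads per kb of exon over the excitatory libraries and 22100 over the inhibitory ones. Its values were 16.03 and 16.01 against 15.74 and 15.64, a difference of 0.33 (SE 0.066, limma adjusted p = 0.00921) that was -0.21 after scaling (0.0951). The sign of this small difference thus follows the scaling, and the deposited call was lost without excitatory 1 (0.109) or excitatory 2 (0.102). Hspa2, best known from the testis, differed by 0.21 (adjusted p = 0.481), and by -0.33 scaled (0.301).

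The organelle and atypical HSP70 genes went both ways. Hspa5, the BiP protein of the endoplasmic reticulum, had 10.77 and 11.60 against 11.97 and 12.46, a difference of -1.03 just past the threshold (limma adjusted p = 0.0491) and -1.57 scaled (0.0171). Hspa9, the mitochondrial HSP70, had 10.38 and 10.57 against 9.20 and 8.67, a 2.92-fold difference (2.00-fold scaled). Hspa13, an HSP70 of microsomes, had 11.86 and 12.30 against 7.93 and 6.78 (26.3-fold, 18.1-fold scaled). Hspa14, which joins the J protein of Dnajc2 on the ribosome, had 12.04 and 12.40 against 10.71 and 10.38 (3.20-fold, 2.20-fold scaled). Dnajc2 itself was higher in the same libraries, with 10.81 and 10.97 against 7.92 and 8.03 (7.53-fold, 5.18-fold scaled, adjusted p = 0.000371 and 0.00084). Of the divergent pair Hspa12a and Hspa12b, the first had 9.15 and 9.82 against 10.64 and 10.95 (adjusted p = 0.016) and the second 0 and 0 against 8.47 and 8.03.

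Leaving out a library cost several of these calls in the deposited values. Hspa5 lost its call with any 1 of the 4 left out, with adjusted p of 0.268 and 0.0966 without excitatory 1 and 2 and 0.205 and 0.348 without inhibitory 1 and 2. So did Hspa12a, with 0.0995 and 0.0556 without excitatory 1 and 2 and 0.138 and 0.184 without inhibitory 1 and 2. Hspa13 (0.0636 and 0.0708) and Hspa9 (0.0971 and 0.112) lost theirs without excitatory 1 and excitatory 2. Hspa14 lost its call without excitatory 2 (0.0617) and inhibitory 2 (0.0611), and after scaling with any 1 of the 4 left out (0.0925 to 0.149).

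The HSP110 genes encode exchange factors of HSP70, and Hspa4 was the member that separated the labels. It had 12.16 and 11.37 against 3.69 and 5.64, a difference of 7.10 (SE 0.74, limma adjusted p = 0.00104) and 6.57 scaled (0.00165). Without excitatory 1 or excitatory 2 the adjusted p was 0.0813 and 0.0713. Its relatives were close to level in the deposited values. Hspa4l had 12.06 and 11.66 against 12.02 and 11.87, and Hsph1, the heat-inducible member, had 9.26 and 9.23 against 9.78 and 9.36. Both passed after scaling alone, towards the inhibitory libraries (-0.63 and -0.87, adjusted p = 0.0398 and 0.0392). Hspa4l did not pass after scaling with any 1 of the 4 libraries left out (0.0978 to 0.225), and Hsph1 did not without excitatory 1 (0.213), excitatory 2 (0.204) or inhibitory 1 (0.092).

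Of the HSP90 genes, the endoplasmic reticulum member Hsp90b1 was higher in the excitatory libraries and the cytosolic pair was close to level. Hsp90b1 had 13.87 and 14.01 against 12.21 and 12.05, a 3.51-fold difference (SE 0.13 on the log2 scale, limma adjusted p = 0.000317) and 2.41-fold scaled (0.00201). The scaled call was lost without excitatory 1 (0.0526), excitatory 2 (0.0633) or inhibitory 2 (0.0518). Hsp90ab1, the constitutive form, had 15.33 and 15.26 against 14.70 and 14.64, and Hsp90aa1, the inducible form, had 14.87 and 14.79 against 14.45 and 14.56. Their differences of 0.63 and 0.32 passed in the deposited values (0.00177 and 0.0255) and were 0.08 and -0.22 after scaling (0.437 and 0.056). The Hsp90aa1 call was lost with any 1 of the 4 libraries left out, with 0.147 and 0.109 without excitatory 1 and 2 and 0.102 and 0.0636 without inhibitory 1 and 2. Hsp90b1 and Hspa5, whose promoters both hold the stress element shown above, thus went in opposite directions. Dnajc3, a J protein of the same compartment with this element, had 13.03 and 12.80 against 12.12 and 12.11, a difference of 0.80 that passed in the deposited values (0.00582) and was 0.26 scaled (0.145), and it did not pass without inhibitory 1 (0.0781) or inhibitory 2 (0.0774).

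**Figure D2:**
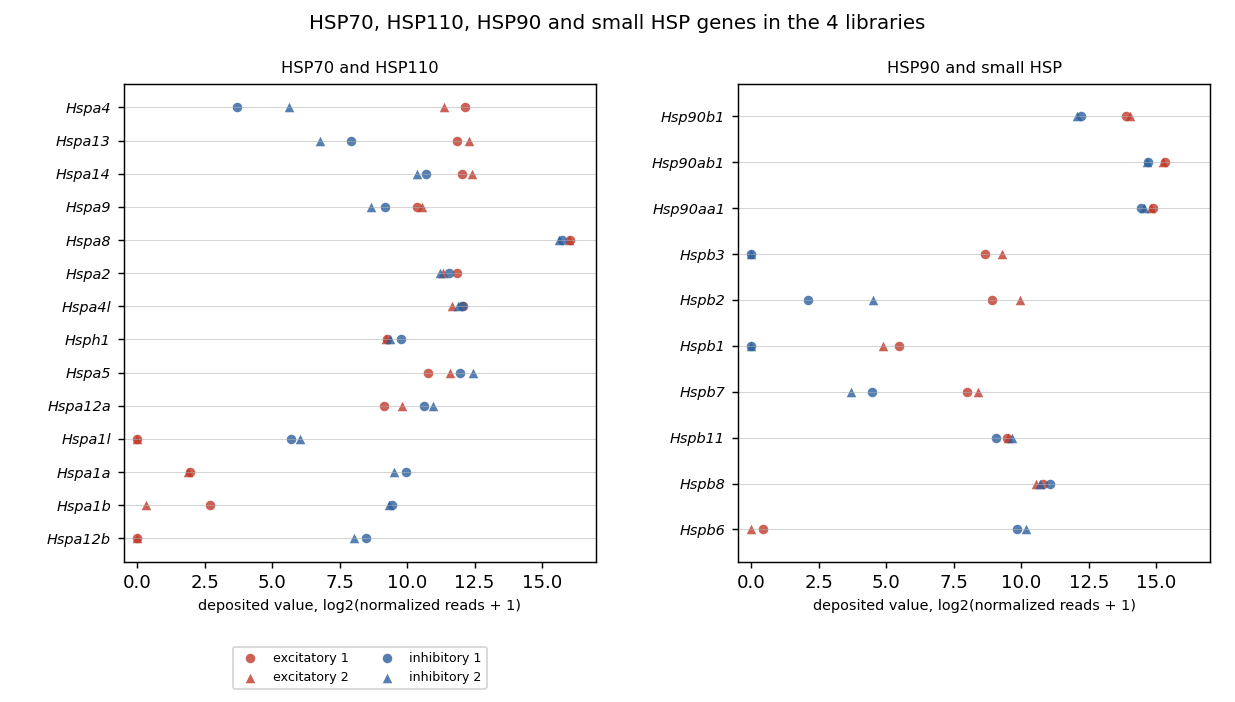
Deposited value, log2(normalized reads + 1), of each tested HSP70, HSP110, HSP90 and small HSP gene in the 4 libraries, 1 point per library. Libraries of a group lie close together for most genes, and Hspa1a, Hspa1b, Hspa12b and Hspb6 separate in the opposite direction from Hspa4, Hspa13, Hspb2 and Hspb3.

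Of the 7 tested small HSP genes, 4 were on the excitatory side (background 32.4%) and 1 on the inhibitory side (background 26.8%). Their median absolute scaled difference was 4.9, against 1.5 over all tested genes. That median is the value of Hspb1 and rests in part on genes that entered the test through 1 group alone. Hspb3 (chr13:113662896-113663676), a partner of Hspb2 in muscle, had 8.66 and 9.28 against 0 and 0. Hspb1, which encodes HSP27, had 5.46 and 4.88 against 0 and 0. Hspb6 (chr7:30552178-30555443), which encodes HSP20, went the other way, with 0.43 and 0 against 9.84 and 10.18. The groups lay apart for all 3, which follows from their entry into the test through the group in which they were high.

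Hspb2 had 8.93 and 9.97 against 2.09 and 4.50, and Hspb7, known from heart muscle, had 7.99 and 8.40 against 4.48 and 3.71. Their differences were 6.15 (limma adjusted p = 0.00347) and 4.10 (0.000978). Hspb2 lost its call without excitatory 1 (0.104), excitatory 2 (0.127) or inhibitory 1 (0.0541), and Hspb7 without excitatory 2 (0.0552). Hspb2 shares 30.2% of its exon bases with the opposite-strand small HSP gene Cryab, whose own values were far higher at 16.54 and 16.32 against 15.24 and 15.26, so its reads cannot be told apart from those of Cryab there. Hspb8, which pairs with Bag3, had 10.79 and 10.53 against 11.05 and 10.68, and Hspb11, a component of cilia, had 9.46 and 9.51 against 9.07 and 9.64. The groups overlapped for both, and Hspb8 passed after scaling alone (-0.75, adjusted p = 0.0409), a call lost with any 1 of the 4 libraries left out (0.0649 to 0.247).

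Markers of vessel cells were mostly absent or too low to test. Of 10 endothelial and mural markers, 5 had 0 in every library, among them the endothelial genes Cldn5, Tek and Kdr, and 4 were tested. Of these 4, 3 were higher on the excitatory side (background 32.4%). The mural genes among them were Rgs5 (9.80 and 10.04 against 1.83 and 1.79) and Pdgfrb (8.0 and 7.72 against 0 and 0). The endothelial gene among them was Flt1 (1.37 and 1.87 against 0 and 0). Acta2, a gene of mural cells with smooth muscle character, had 3.83 and 3.30 against 3.10 and 3.50 and did not pass (limma adjusted p = 0.594). The list summed to a linear level of 1160 and 1270 against 10.2 and 18.9. Its part in the small HSP values was not tested.

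Both chaperonin systems were measured in all libraries, and their subunits moved unequally. The mitochondrial chamber is built from Hspd1 (HSP60) and capped by Hspe1 (HSP10), and the genes point away from each other on chromosome 1, with the starts of their first annotated transcripts 108 bases apart. The RefSeq promoter window of Hspe1 and the nearer window of Hspd1 share 285 bases, which hold the heat shock matches printed above. Hspd1 had 13.64 and 13.37 against 10.44 and 10.61, a 7.89-fold difference (SE 0.17 on the log2 scale, limma adjusted p = 0.000176) and 5.42-fold scaled (0.000273). Hspe1 had 12.58 and 12.57 against 11.93 and 12.10, a 1.47-fold difference (adjusted p = 0.0172) and 1.01-fold scaled (0.921), whose call was lost without excitatory 1 (0.0949) or excitatory 2 (0.0927). Per kb of exon, Hspe1 had a mean of 7870 and Hspd1 4820 normalized reads in the excitatory libraries, against 5360 and 609 in the inhibitory ones.

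TRiC is the cytosolic chaperonin that folds actin and tubulin, a ring with a single copy of each of its subunits. Of its 8 tested genes, Cct2, Cct4 and Cct6a were higher in the excitatory and Cct3 in the inhibitory libraries. Cct2 had 13.32 and 13.01 against 10.63 and 10.15, a 6.84-fold difference (limma adjusted p = 0.000544) and 4.70-fold scaled (0.00167). Cct6a had 13.74 and 13.69 against 12.05 and 11.79 (3.47-fold), and Cct4 had 12.19 and 12.43 against 11.13 and 10.55 (2.78-fold). Cct3 had 11.60 and 11.19 against 12.33 and 12.14, a 1.79-fold difference the other way (adjusted p = 0.0172) and 2.60-fold scaled (0.00388). These 4 genes were picked by the threshold, so the lack of overlap between their groups adds no support.

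The other TRiC genes were nearer to level. Tcp1 had 14.32 and 14.25 against 13.76 and 13.57, and Cct7 had 13.53 and 13.35 against 12.66 and 12.44. Both passed in the deposited values alone (limma adjusted p = 0.00616 and 0.00439, scaled 0.622 and 0.105), Tcp1 not without excitatory 1 (0.099) or 2 (0.0864), and Cct7 not without excitatory 1 (0.082), excitatory 2 (0.0649) or inhibitory 2 (0.0628). Cct5 had 13.11 and 13.03 against 12.80 and 12.76 and passed in neither scaling. Cct8 had 12.62 and 12.44 against 12.45 and 12.60 and passed after scaling alone, towards the inhibitory libraries (-0.53, adjusted p = 0.0175), a call lost with any 1 of the 4 left out (0.054 to 0.0817).

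No TRiC call in both scalings held without every library. After scaling, Cct2 lost its call without excitatory 1 (0.0787) or excitatory 2 (0.0706), and Cct6a likewise (0.0809 and 0.0832). In the deposited values Cct4 lost it without excitatory 1 (0.105), excitatory 2 (0.128) or inhibitory 2 (0.0542), and Cct3 without excitatory 1 (0.055), excitatory 2 (0.0953), inhibitory 1 (0.172) or inhibitory 2 (0.127). Per kb of exon, the highest subunit gene was Tcp1 in every library. It exceeded the lowest, Cct3, by 5.26 and 6.61 times in excitatory 1 and 2, and the lowest, Cct2, by 6.29 and 7.67 times in inhibitory 1 and 2. Exons on the opposite strand cover 20% of those of Tcp1 (Acat3) and 18.4% of those of Cct6a (Psph), which limits these ratios.

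**Figure D3:**
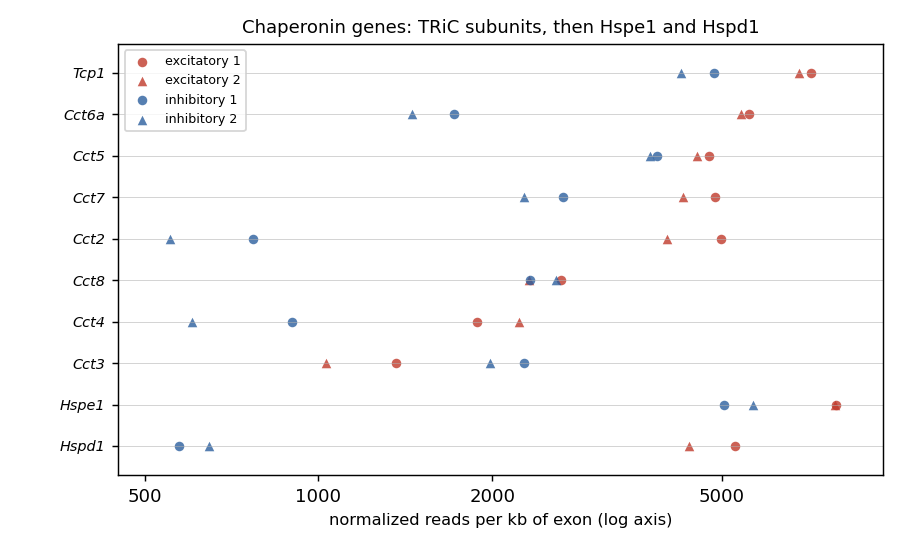
Normalized reads per kb of exon (log axis) of the 8 tested TRiC genes and of Hspe1 and Hspd1, 1 point per library. The inhibitory points of Cct2, Cct4, Cct6a and Hspd1 lie well below the excitatory ones, those of Cct3 lie above them, and those of Cct8 mix with them.

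The DnaJ genes were the largest family, with 38 of 45 tested. Of these, 11 were on the excitatory (28.9%, background 32.4%) and 9 on the inhibitory side (23.7%, background 26.8%), shares near those of all genes. In the excitatory direction the widest separation was that of Dnajc10 (chr2:80315466-80354043), a disulfide reductase of the endoplasmic reticulum, with 11.43 and 11.42 against 0 and 0. Dnajb1, the main inducible J partner of HSP70, had 8.60 and 9.17 against 2.09 and 0.78, a difference of 7.45 (SE 0.57, limma adjusted p = 0.000423) and 7.0 scaled (0.000852). It was thus high in the libraries where Hspa1a and Hspa1b were low. The scaled call of Dnajb1 was lost without excitatory 1 (0.0564) or excitatory 2 (0.063).

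Dnajb2, a J protein enriched in neurons that binds ubiquitin chains, had 14.17 and 14.11 against 11.07 and 11.07, an 8.40-fold difference (limma adjusted p = 9.49e-05) and 5.77-fold scaled (0.000149). Dnajc8, linked to splicing, had 13.08 and 13.13 against 11.48 and 11.51 (3.06-fold, 2.10-fold scaled). Dnajb7, at 3.53 and 3.29 against 0 and 0, was at the level of a few reads. Its 4 values are also those of Adra1d and Pnma3.

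Further DnaJ genes higher in the excitatory libraries lost their calls when a library was left out. Dnajb4 had 12.60 and 12.51 against 7.60 and 9.03, a call lost without excitatory 1 (limma adjusted p = 0.0977) or excitatory 2 (0.0947). Dnajc1, a J protein of the endoplasmic reticulum membrane, had 9.69 and 10.35 against 6.64 and 5.87, lost without excitatory 1 (0.0531), excitatory 2 (0.0643) or inhibitory 2 (0.0508). Dnajc25 had 6.80 and 7.07 against 4.98 and 4.50, lost without the same libraries (0.0622, 0.0706 and 0.0518). Dnajc27 had 12.12 and 11.71 against 9.73 and 10.40, lost without excitatory 1 (0.123), excitatory 2 (0.0932) or inhibitory 1 (0.0721). The groups of all 4 genes lay apart in the 4 libraries, which adds no support because the threshold had picked the genes.

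In the inhibitory direction, Dnajc12, whose protein works with aromatic amino acid hydroxylases, had 0 and 1.32 against 10.59 and 10.49. Dnajc28 had the same low pair, 0 and 1.32, against 9.99 and 10.22. Dnaja4 had 5.62 and 5.73 against 9.58 and 10.11, an 18-fold difference (limma adjusted p = 0.000396), or 26.1-fold scaled (0.000313), but 44.6% of its exon bases lie opposite exons of Wdr61. Dnajc24, needed for the diphthamide modification of a translation factor, had 9.40 and 9.31 against 10.60 and 10.58 (2.35-fold, 3.42-fold scaled). These 4 genes kept their calls without any single library.

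Others in this direction did not. Dnajc13, of endosomes, had 3.38 and 0 against 10.29 and 9.37, a call that did not hold without inhibitory 1 (limma adjusted p = 0.125) or inhibitory 2 (0.107). Dnajc7, which binds HSP70 and HSP90, had 10.32 and 9.55 against 12.24 and 12.13, also lost without these libraries (0.0972 and 0.0901). Dnajb12, of the endoplasmic reticulum membrane, had 9.07 and 8.68 against 10.69 and 11.16, lost without excitatory 1 (0.0588), excitatory 2 (0.0722) or inhibitory 2 (0.0606). Dnajc21, a ribosome assembly factor, had 8.45 and 8.16 against 9.16 and 9.02, lost with any 1 of the 4 left out (0.0716 to 0.167).

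Of the 6 DnaJ genes with the highest mean value, Dnajb2, given above, was 8.4-fold higher in the excitatory libraries, and the other 5 differed by less than 1 log2 unit. Dnaja1, a main cytosolic partner of Hspa8, had 15.52 and 15.62 against 15.15 and 15.44, and passed in neither scaling (limma adjusted p = 0.101 and 0.0952). Dnajc19, of the mitochondrial import motor, had 14.53 and 14.46 against 14.11 and 14.24. Dnajc6, the clathrin uncoating partner of Hspa8, had 13.68 and 13.26 against 12.84 and 13.17, and passed in neither scaling (0.0999 and 0.727). Dnajc5, of synaptic vesicles, had 13.59 and 13.11 against 12.48 and 12.41, and Dnajb11, of the endoplasmic reticulum, had 13.11 and 12.80 against 12.52 and 12.30. Dnajc19, Dnajc5 and Dnajb11 passed in the deposited values (0.0324, 0.0124 and 0.0396) and not after scaling (0.0664, 0.154 and 0.987), where their differences were -0.22, 0.36 and 0.00. Dnajc19 (0.0622 to 0.163) and Dnajb11 (0.0951 to 0.238) lost that call with any 1 of the 4 libraries left out, and Dnajc5 without inhibitory 1 (0.155) or inhibitory 2 (0.17).

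**Figure D4:**
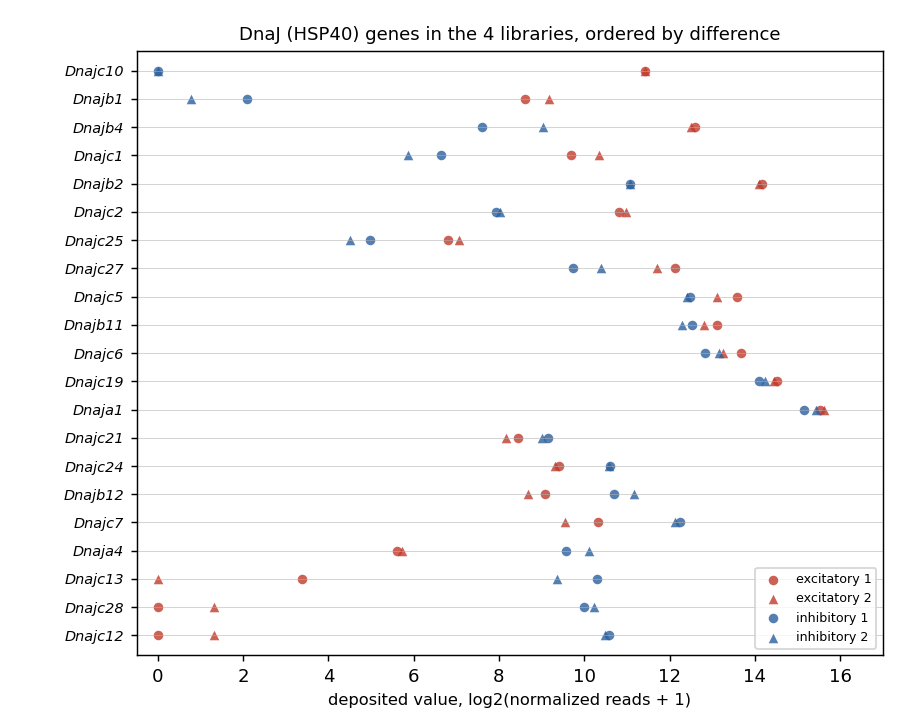
Deposited value, log2(normalized reads + 1), of the named DnaJ genes in the 4 libraries, 1 point per library. Dnajc10 and Dnajb1 are high in the excitatory libraries, Dnajc12, Dnajc28 and Dnajc13 in the inhibitory ones, and Dnaja1, Dnajc19 and Dnajc6 lie close together in all 4.

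Genes that regulate or assist these chaperones were read as lists. Of the 5 tested heat shock factor genes, 2 were higher in the inhibitory libraries (background 26.8%). Hsf1, the main activator of the heat shock response, had 5.54 and 4.76 against 6.98 and 8.0 (difference -2.34, SE 0.52, limma adjusted p = 0.0135, scaled -2.87, 0.00695). Its call was lost with any 1 of the 4 libraries left out, with 0.114 and 0.17 without excitatory 1 and 2 and 0.0765 and 0.129 without inhibitory 1 and 2. Hsf4 had 0 and 0 against 9.44 and 9.54. Hsf2 (0.72, adjusted p = 0.241) and Hsf5 (0.80, 0.176) did not pass. Hsbp1, which binds Hsf1, had 15.63 and 15.41 against 14.96 and 15.06, and passed in the deposited values alone (0.00966, scaled 0.791), a call lost with any 1 of the 4 libraries left out (0.0519 to 0.145).

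Of the 31 tested cochaperones of HSP70 and HSP90, 14 were higher in the excitatory (45.2%, background 32.4%) and 4 in the inhibitory libraries (12.9%, background 26.8%). In both scalings and with each library left out in turn, 4 and 1 of them stayed past the threshold, or 16.1%, against 25.1% of all genes. Bag1, an exchange factor of HSP70, had 15.92 and 15.83 against 14.54 and 14.37 (2.68-fold, limma adjusted p = 0.000258, and 1.84-fold scaled, 0.00252), a scaled call lost without excitatory 1 (0.0927) or excitatory 2 (0.0913). Fkbp5, which tunes HSP90 at steroid receptors, had 6.10 and 6.64 against 0.47 and 0. Unc45a, a myosin chaperone that binds HSP90, had 10.55 and 11.14 against 0 and 1.38. Sgtb had 6.74 and 6.62 against 0 and 0.

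Of the 13 tested prefoldin genes and TRiC partners, 3 were higher on the inhibitory (background 26.8%) and 1 on the excitatory side (background 32.4%). Pdcl had 0.43 and 0.34 against 10.72 and 10.27, and Txndc9 had 11.05 and 10.85 against 12.27 and 12.46 (2.66-fold, limma adjusted p = 0.00159). The tubulin cofactor genes Tbcc and Tbce were each at 0 in the libraries of a single label. Tbcc had 9.77 and 10.35 against 0 and 0, and Tbce had 0 and 0 against 10.89 and 11.28. Tubulin folding is a need of every cell, so a listed 0 is given here as listed and not as absence.

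Of the 17 tested genes of folding in the endoplasmic reticulum, 6 were on the excitatory (background 32.4%) and 5 on the inhibitory side (background 26.8%). P4hb, a disulfide isomerase, had 12.35 and 12.23 against 5.02 and 5.97 (difference 6.80, limma adjusted p = 0.000186), and the stress transcription factor Atf6 had 12 and 12.22 against 9.02 and 9.06. Atf4 had 13.53 and 13.29 against 10.88 and 11.13. Herpud1, a stress-induced gene of the degradation pathway, had 0 and 1.32 against 10.57 and 10.36. Of 13 other chaperones tested, 5 were on the excitatory side (background 32.4%) and 1 on the inhibitory (background 26.8%). The mitochondrial Clpb had 13.29 and 12.80 against 9.29 and 9.80, and Lonp1, a mitochondrial protease, had 12.99 and 13.22 against 6.42 and 6.98. Cryab, the αB-crystallin gene, differed by 1.18, or 0.64 scaled (0.000437 and 0.00254), and the scaled call was lost without excitatory 1 (0.0539), inhibitory 1 (0.0646) or inhibitory 2 (0.0728). Clgn had 0 and 0 against 4.18 and 3.39, a call lost without excitatory 1 (0.0557) or excitatory 2 (0.0561).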

How the data were processed

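The authors' deposited tables hold log2 values of 24421 genes in 4 libraries. Per the labels' protocols, cells were lysed for SMART-seq v4 cDNA and Nextera XT libraries, and the submitters' processing notes name TopHat, edgeR and the build mm10. Their versions, the read counter and the normalization were not given in the sources used here. That the values are log2(normalized reads + 1) was settled from the even spacing of the low values. In R 4.3.3, limma 3.58.1 with a mean-variance trend was fitted to the 13619 genes that reached a value of 1 in 2 or more libraries, with an adjusted p threshold of 0.05. Alternatives were upper-quartile and median-of-ratios scaling, a pseudocount of 8, other filters, no trend, a replicate block and leaving out each library. Linear values divided by exon length (GENCODE M21) give reads per kb. Libraries of a group differed by a median chi-square of 51.5 and 56.3 times counting error, so none was counted as a copy. The fit was checked on simulated data.

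Members and lists were chosen with earlier results of these data known. Named were all tested members outside the DnaJ family. Of DnaJ genes, up to 8 per direction were named by size of difference and 6 by level, with the heat shock factors and up to 4 genes of each other list by p. Dnajb7, Dnajc3, Dnajc8, the markers beyond the label checks and the immediate early genes were named after their values were seen.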

Additional observations from a re-analysis of the deposited data

How the results depend on the processing

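With 2 libraries per group, counts of calls depended on each library. Leaving out a library gave 17 to 27 members higher in the excitatory libraries (36 with all) and 9 to 12 higher in the inhibitory ones (17 with all), 3530 to 4241 and 2310 to 2627 of all genes, and 20 to 30 and 8 to 10 partner genes (39 and 15 with all). The members' median difference then ranged from 0.30 to 0.59, the highest without excitatory 2. In a combination chosen after seeing the data, median-of-ratios scaling with a library left out gave 8 to 17 and 10 to 14 members.

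Median-of-ratios and upper-quartile scaling each gave 27 members higher in the inhibitory libraries and member medians of -0.20 and -0.18. Both scalings lower every difference by construction and turned the sign of Cct5 (-0.26 and -0.24), Cct8 (-0.53 and -0.52), Hsp90aa1 (-0.22 and -0.20), Hspa2 (-0.33 and -0.31), Hspa8 (-0.21 and -0.19), Hspb11 (-0.41 and -0.39), Dnaja1 (-0.27 and -0.25), Dnajc19 (-0.22 and -0.21), Dnajc6 (-0.08 and -0.06), Hsbp1 (-0.03 and -0.01) and Slc17a7 (-0.24 and -0.23). With a library left out, Cct8 ranged from -0.08 (without excitatory 1; -0.07 without inhibitory 1) to 0.10, Hspa2 from -0.05 (without excitatory 1) to 0.47, Hspa4l from -0.28 to 0.12 (without excitatory 2), Hspb11 from -0.15 (without inhibitory 1) to 0.42, and Gad2 from -0.40 to 0.25 (without excitatory 1).

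Same-numbered libraries did not deviate together (correlation across genes -0.00193), which does not settle whether they shared animals or a batch. The fit with a replicate block gave 34 and 16 members. A pseudocount of 8 and a stricter filter changed no call of the 80 named genes, no filter ended 1 and no trend ended 7.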
